A study of Homo sapiens with 64 samples.

Results

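The genes described here are 10 members of the Notch pathway: the receptors NOTCH1, NOTCH2 and NOTCH3, the ligands JAG1, JAG2, DLL1 and DLL4, and the targets HES1, HEY1 and NRARP. They were chosen by symbol, and their Ensembl identifiers were found among the 54127 genes of every count file, so 10 of 10 members had a row. RNA sequencing was performed on 64 libraries from human colorectal cancer cell lines grown as spheroids in non-adherent, serum-free culture with bFGF and EGF. Of these, 48 came from cells that had been loaded with CFSE, a dye diluted at each division, and sorted on day 6 into label-retaining cells (LRCs, the brightest cells) and non-LRCs (the bulk, cycling cells). The lines were HT55, SW948, RKO, SW48, DLD1 and HCT15, with 4 LRC and 4 non-LRC libraries from each, and no line carried an engineered allele or received a drug. The other 16 libraries are labelled as unsorted DLD1 controls, with CFSE or with DMSO alone, at d1 and d5 (day 6 in the design text), 4 per group. Each line is a single cultured cancer line, and DLD1 and HCT15 are generally held to come from the same patient, so the 6 lines are models and not 6 independent tumors.

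Notch receptors are cut by proteases when they bind a ligand on a neighboring cell, and the freed intracellular part enters the nucleus and joins the DNA-binding protein RBPJ to switch on targets. HES1 and HEY1 are transcriptional repressors of that kind, and NRARP is a target that feeds back to restrain the pathway. In the intestinal crypt, Notch signaling keeps progenitors undifferentiated and favors absorptive over secretory cells, with HES1 repressing the secretory regulator ATOH1.

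All 10 genes are protein coding. On GRCh37, the build of the count files, NOTCH1 lies at chr9:139388885-139440500, NOTCH2 at chr1:120454176-120643366 and NOTCH3 at chr19:15269849-15311806. JAG1 lies at chr20:10618332-10654647, JAG2 at chr14:105607319-105635161, DLL1 at chr6:170591294-170615653 and DLL4 at chr15:41221538-41231271. HES1 lies at chr3:193853937-193856521 and NRARP at chr9:140194083-140196723. HES1 and DLL4 are on the plus strand and the other members on the minus strand. DLL1 shares 370 exonic bases with FAM120B on the opposite strand and JAG2 shares 469 with a noncoding gene (ENSG00000257622) on the same strand. NOTCH2 has near-identical partial copies in the genome (the NOTCH2NL genes), so its counts are uncertain.

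The promoters of HES1 and NRARP are shown because these targets moved in opposite directions in RKO LRCs. The 250 bases before each start are given from RefSeq, GRCh38.p14, HES1 at chr3:194135898-194136147 (plus strand) and NRARP at chr9:137302272-137302521 (minus strand), 5′ to 3′ on the strand of the gene. Capitals mark the letters TGGGAA, the core of the RBPJ motif, searched on both strands.
HES1: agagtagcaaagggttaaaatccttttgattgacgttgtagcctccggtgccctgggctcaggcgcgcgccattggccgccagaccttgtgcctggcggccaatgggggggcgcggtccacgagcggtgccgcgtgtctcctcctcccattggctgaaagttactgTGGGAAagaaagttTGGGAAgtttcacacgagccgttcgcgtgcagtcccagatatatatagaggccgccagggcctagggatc
NRARP: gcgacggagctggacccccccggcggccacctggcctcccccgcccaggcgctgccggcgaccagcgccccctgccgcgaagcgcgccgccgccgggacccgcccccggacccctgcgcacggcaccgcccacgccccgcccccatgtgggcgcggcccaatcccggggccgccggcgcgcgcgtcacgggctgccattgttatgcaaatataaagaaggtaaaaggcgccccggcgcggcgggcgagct
The HES1 stretch holds TGGGAA at 84 to 79 and at 70 to 65 bases before the start, and 1 of these extends to GTGGGAA, a longer form that contains the shorter motif. The NRARP stretch holds no TGGGAA in this window, and neither do those of NOTCH1, NOTCH2, NOTCH3, JAG1, JAG2 and DLL4. For 8 of the 10 members a promoter was found. Of 35116 promoters of the same length, 20.8% hold TGGGAA at least once, 2.90% hold it 2 or more times and 5.43% hold GTGGGAA.

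Between 12237225 and 20913455 reads per library fell on genes (median 15063858), and values are given as CPM, counts scaled to the reads on genes of a library with TMM factors, mean ± SD over 4 libraries. Of the members, HEY1 was by far the sparsest, with 970 reads over the 48 sorted libraries, and counting error weighs most on it. Epithelial markers were high in 5 lines (summed CPM of 8 markers between 3091 and 15773 in LRCs and non-LRCs) and low in RKO (238 in non-LRCs, 302 in LRCs). The epithelial adhesion gene EPCAM stood at 16.2 CPM in RKO non-LRCs and CDH1 at 0.926 CPM. The 4 endothelial markers found summed to between 1.04 and 3.15 CPM in every sorted group and the 5 fibroblast markers to between 0.143 and 10.6 CPM. The 5 immune markers summed to 1375 CPM in SW948 non-LRCs and 1340 CPM in its LRCs, nearly all of it LYZ, to 65.6 and 64.1 CPM in HT55, and to between 1.13 and 16.7 CPM in the other lines. In a sorted population, fewer cells expressing a gene and less RNA per cell cannot be told apart.

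Several control libraries went against their labels. All 16 libraries labelled DLD1 controls correlated best with sorted HCT15 (r = 0.951 to 0.992, against 0.915 to 0.955 with sorted DLD1), and over the 568 genes that differed most between these lines, 79.2% to 95.6% of genes in a control library lay nearer to HCT15. They are therefore called the libraries labelled DLD1 control. Replicate 4 of DMSO d1 correlated best with the DMSO d5 libraries, and replicates 1 and 2 of CFSE d1 stood apart from replicates 3 and 4. Results that rest on these 3 libraries are given with and without them.

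The first comparison asked how far the lines differ in these genes before any split by CFSE. In non-LRCs, all 10 members differed between the 6 lines (edgeR quasi-likelihood test, adjusted p between 2.56e-21 and 5.05e-08), as did 98.3% of all genes tested, so the count of members is no more than the background. The sizes of the differences varied widely among the members. The highest line exceeded the lowest by 383-fold for HES1 and 73.0-fold for NOTCH3, and by no more than 2.14-fold for NOTCH2 and 3.0-fold for NRARP.

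Pair by pair, HT55 differed from each other line in 9 of 10 members, beside 71.7% of genes against SW948, 78.3% against RKO, 75.3% against SW48, 71.4% against DLD1 and 73.9% against HCT15. SW948 differed from RKO in 10 members (76.1% of genes), from SW48 in 9 (74.3%) and from DLD1 and HCT15 in 7 each (70.8% and 72.7%). RKO differed from SW48 in 8 members (69.8%), from DLD1 in 10 (73.5%) and from HCT15 in 7 (74.4%), and SW48 differed from DLD1 and HCT15 in 8 each (67.5% and 67.4%). DLD1 and HCT15 were the pair least apart, with 5 members called beside 49.4% of genes.

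**Figure D1:**
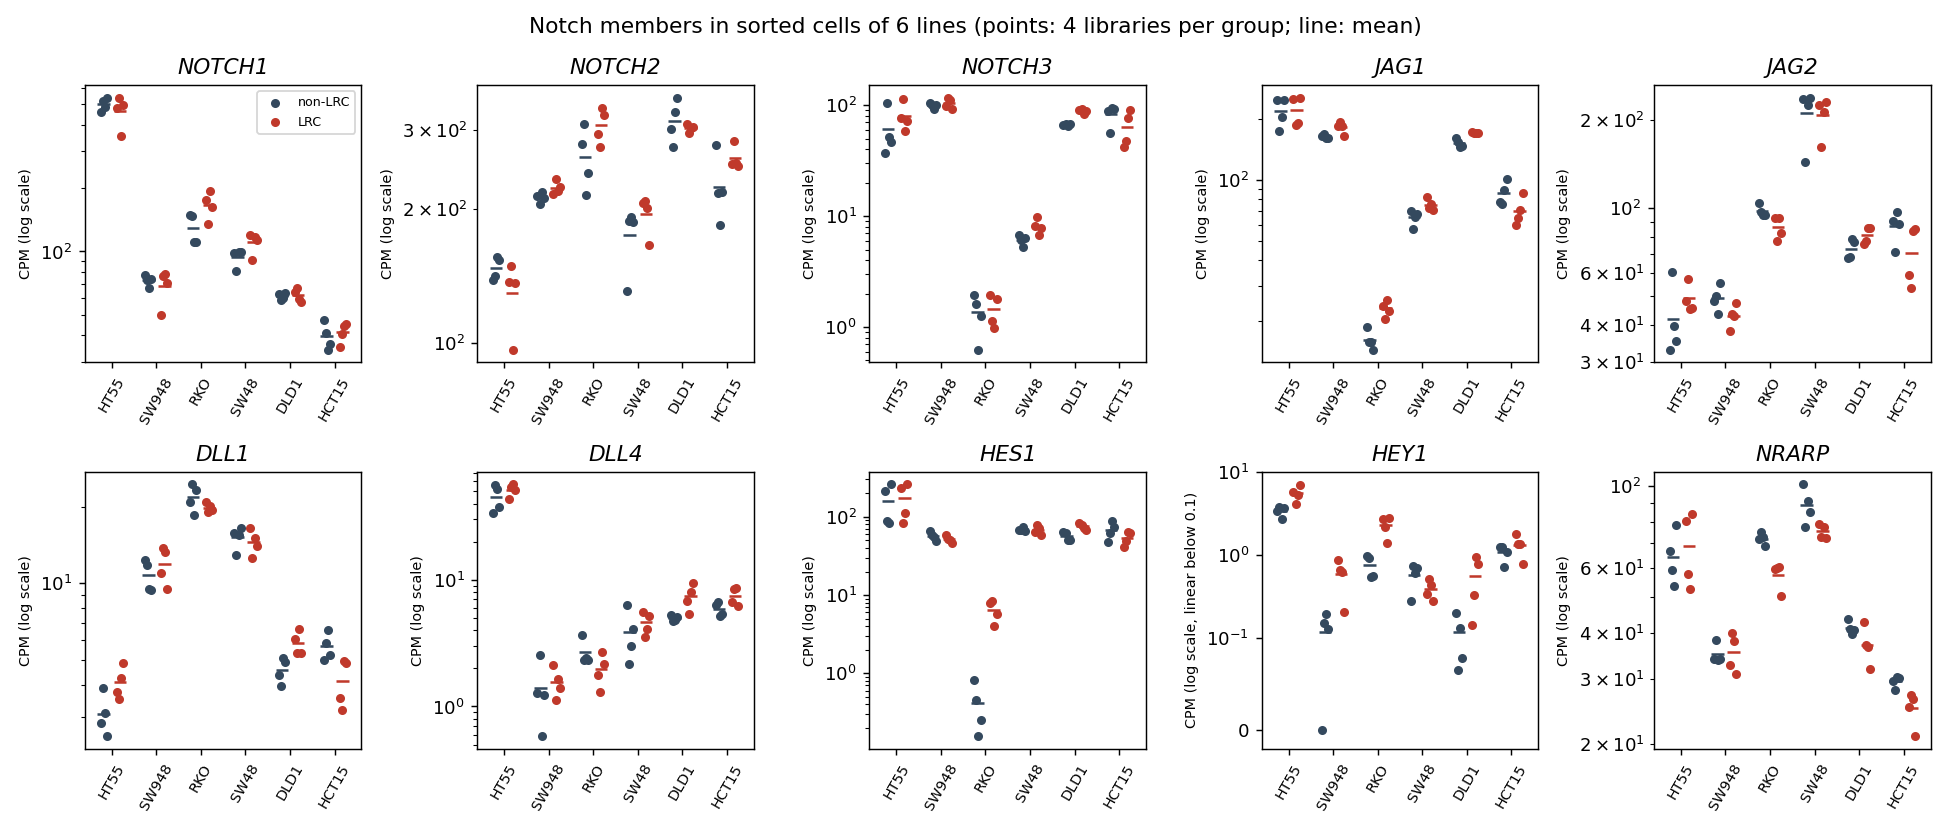
CPM of each member in the sorted libraries of the 6 lines, on a log scale (linear below 0.1 for HEY1); points are the 4 libraries of a group and short lines their means, with non-LRCs dark and LRCs red. HES1 and NOTCH3 sit lowest in RKO (0.422 and 1.36 CPM in non-LRCs), and NOTCH1 and DLL4 sit highest in HT55 (502 and 45.0 CPM).

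Among the receptors, NOTCH1 was highest in HT55, at 502 ± 34.8 CPM in non-LRCs, and fell in order through RKO (129), SW48 (94.3), SW948 (73.0), DLD1 (61.3) and HCT15 (39.8). Each neighbor in this order differed from the next (the closest pair was SW948 and DLD1, adjusted p = 0.0369, edgeR). NOTCH2 ran from 315 CPM in DLD1 to 147 CPM in HT55, and its neighbors RKO and HCT15, HCT15 and SW948, and SW48 and HT55 did not differ beyond their spread (adjusted p = 0.0841, 0.617 and 0.0889). NOTCH3 was high in SW948 (99.5 CPM), HCT15 (82.7), DLD1 (66.5) and HT55 (60.5), where neighbors did not differ but SW948 differed from DLD1 (adjusted p = 0.0146) and from HT55 (adjusted p = 0.00364). SW48 (6.09 CPM) and RKO (1.36 CPM) lay far below them and differed from each other (adjusted p = 6.44e-06).

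Among the ligands, JAG1 was highest in HT55 (218 CPM), followed by SW948 (163) and DLD1 (151), which did not differ from each other (adjusted p = 0.383, edgeR), and lowest in RKO (16.3). JAG2 had another order: SW48 led with 211 CPM, ahead of RKO (97.8), HCT15 (86.7) and DLD1 (72.7), and HT55 had the least (42.0). Neighbors from RKO to DLD1 did not differ, though RKO and DLD1 did, and SW948 and HT55 did not differ (adjusted p = 0.229). DLL1 was highest in RKO (21.8 CPM) and SW48 (15.2) and lowest in HT55 (3.08), with DLD1 and HCT15 not told apart (adjusted p = 0.104). DLL4 stood at 45.0 CPM in HT55 and between 1.41 and 5.91 CPM in the other lines, where HCT15, DLD1, SW48 and RKO formed a run without a called neighbor, although RKO differed from DLD1 and HCT15. In non-LRCs HT55 thus had the highest means of NOTCH1, JAG1 and DLL4 and the lowest of NOTCH2, JAG2 and DLL1. It was not called apart from SW48 for NOTCH2 or from SW948 for JAG2. In LRCs the lowest JAG2 mean was that of SW948 (43.0 CPM, against 49.2 in HT55).

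Among the targets, HES1 was highest in HT55, where the 4 non-LRC libraries were spread from 84.1 to 261 CPM. SW48, HCT15, SW948 and DLD1 had similar levels, 69.4 to 56.8 CPM, with no called difference between neighbors (adjusted p = 0.391 to 0.998, edgeR). RKO had almost none, 0.422 ± 0.297 CPM, from 24 reads over 4 libraries. HEY1 was also highest in HT55 (3.37 CPM), between 0.580 and 1.07 CPM in SW48, RKO and HCT15, and 0.118 CPM in both SW948 and DLD1 (7 reads each over 4 libraries). NRARP had the flattest profile of the targets, from 88.7 CPM in SW48 to 29.6 CPM in HCT15, and RKO and HT55 were not told apart (adjusted p = 0.167). Thus RKO, lowest for HES1, had the second highest mean of NRARP in non-LRCs (72.1 CPM), not told apart from HT55 (64.5 CPM). In LRCs the NRARP means of RKO and HT55 were 57.6 and 68.8 CPM.

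Per length of exon, levels can be set between genes. In HT55 non-LRCs the order of mean RPKM was HES1 (78.5), NOTCH1 (40.0), NRARP (24.4) and JAG1 (23.5), with HEY1 at 0.614 RPKM. In RKO non-LRCs it was NRARP (27.3), NOTCH2 (15.6), JAG2 (15.3) and NOTCH1 (10.3), with NOTCH3 at 0.145 RPKM and HES1 at 0.205 RPKM. In RKO, NOTCH1 and NOTCH2 were therefore the receptors with substantial RNA, and JAG2 the ligand with the most.

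The second comparison asked whether the members differ between LRCs and non-LRCs across the 6 lines, with line as a covariate. HEY1 was higher in LRCs and NRARP lower, and the other 8 members did not pass the test, so 2 of 10 members were called beside 22.9% of all 16603 genes tested (12.2% higher and 10.7% lower). HEY1 rose by 0.88 on the log2 scale (SE 0.18, adjusted p = 0.000401, edgeR quasi-likelihood test) and was higher in the LRC library of 19 of 24 same-numbered pairs and in the mean of 5 of 6 lines. The uncalled JAG1 had the same 19 of 24 and 5 of 6, and the uncalled DLL4 had 18 of 24 and 5 of 6. How many of all genes reached such counts was not determined. NRARP fell by 0.13 on the log2 scale (SE 0.05, adjusted p = 0.0439), with LRCs above non-LRCs in 4 of 24 such pairs. In RKO and SW948 the replicate numbers did not pair the libraries, so their pairs were matched by number alone. The call of NRARP was kept in 4 of 16 other settings, while that of HEY1 was kept in 15 of 15 (log2 fold change 0.70 to 1.06). The log2 fold change was positive for 8 of 10 members and for 8902 of 16603 genes tested, with a median of 0.11 over the members and 0.015 over all genes.

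The 8 members without a call had small mean differences. HES1, at 0.22 on the log2 scale (SE 0.16, adjusted p = 0.348, edgeR), had a value of 0.01 without RKO (adjusted p = 0.966). DLL4 (0.23, adjusted p = 0.104), NOTCH3 (0.17, 0.212) and JAG1 (0.13, 0.0911) were positive, and DLL4 passed when the replicate number was a block (0.25, adjusted p = 0.0478), a fit that called 25.5% of genes. That block included RKO and SW948, whose replicate numbers did not pair the libraries. NOTCH1 and NOTCH2 had log2 fold changes of 0.09 and 0.08. DLL1 and JAG2 lay nearest to 0.

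HEY1, at chr8:80674606-80680092, was low throughout, and its lines differed in how it moved. In RKO, non-LRC libraries had 0.977, 0.907, 0.549 and 0.563 CPM and LRC libraries 2.70, 2.17, 1.39 and 2.79 CPM. In HT55, the values were 3.41, 3.75, 2.70 and 3.62 CPM in non-LRCs and 5.76, 4.12, 5.25 and 6.86 CPM in LRCs. All LRC libraries of these lines lay above all non-LRC libraries. In SW948 the level went from 0, 0.150, 0.194 and 0.129 CPM to 0.869, 0.656, 0.629 and 0.206 CPM (7 and 37 reads in all), again without overlap. In DLD1 it went from 0.199, 0.0658, 0.131 and 0.0782 CPM to 0.143, 0.330, 0.939 and 0.786 CPM (7 and 31 reads), where 1 LRC library lay within the non-LRC range. HCT15 (1.07 to 1.32 CPM) and SW48 (0.580 to 0.393 CPM) overlapped between populations. HEY1 was too sparse to be tested within SW948, SW48 and DLD1 at the count filter used. Without that filter it was called in SW948 (log2 fold change 2.23, adjusted p = 0.0136, edgeR) and DLD1 (2.12, adjusted p = 0.0322). The unfiltered fit of SW948 called 973 of 27040 genes, where the filtered fit called 0 of 13674. That of DLD1 called 2089 of 27106 genes.

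NRARP and DLL1 are given line by line. For NRARP the LRC effect was not called as different between lines (adjusted p = 0.260, edgeR's interaction test). Its mean was lower in LRCs in RKO (72.1 to 57.6 CPM), SW48 (88.7 to 75.5), DLD1 (41.3 to 37.1) and HCT15 (29.6 to 25.0), and changed by less than the spread in HT55 (64.5 to 68.8) and SW948 (35.1 to 35.4). In HCT15 the NRARP libraries did not overlap, at 29.7, 28.0, 30.4 and 30.2 CPM in non-LRCs and 25.2, 27.2, 26.6 and 21.02 CPM in LRCs. DLL1 had the opposite order of populations in DLD1 and HCT15. Its DLD1 libraries were at 4.38, 3.95, 5.10 and 4.92 CPM in non-LRCs and 6.06, 5.34, 6.64 and 5.35 CPM in LRCs. Its HCT15 libraries were at 5.002, 5.86, 6.59 and 5.24 CPM in non-LRCs and 3.56, 3.19, 4.95 and 4.88 CPM in LRCs. In both lines the populations did not overlap, with LRCs above in DLD1 and below in HCT15, and neither passed in the test of its line (adjusted p = 0.0926 and 0.262, edgeR).

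The lines were then tested singly. No gene at all was called in HT55 (0 of 13391, with 1005 at an unadjusted p under 0.05 and 37 called by DESeq2) or SW948 (0 of 13674, with 2350 and 244), and none of the members was called there by either tool, with 1 at an unadjusted p under 0.05 in each line (HEY1 in HT55, log2 fold change 0.71, SE 0.20, and JAG1 in SW948, 0.15, SE 0.07). In SW48 and HCT15, where 0.796% and 0.977% of genes were called, 0 members were called by edgeR and 0 by DESeq2. By edgeR, 4 of 9 and 3 of 10 members had an unadjusted p under 0.05, beside 1728 of 13196 and 2415 of 14017 genes. In RKO 5 of 10 members were called, 4 higher and 1 lower, beside 41.5% of genes (20.4% higher and 21% lower). In DLD1 4 of 9 were called, all higher, beside 14.6% of genes (6.67% higher). LRC and non-LRC libraries did not overlap for 1 of 10 tested members in HT55 (3.16% of genes), 0 of 9 in SW948 (5.05%), 5 of 10 in RKO (36.7%), 1 of 9 in SW48 (8.31%), 5 of 9 in DLD1 (21.2%) and 2 of 10 in HCT15 (10.4%).

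**Figure D2:**
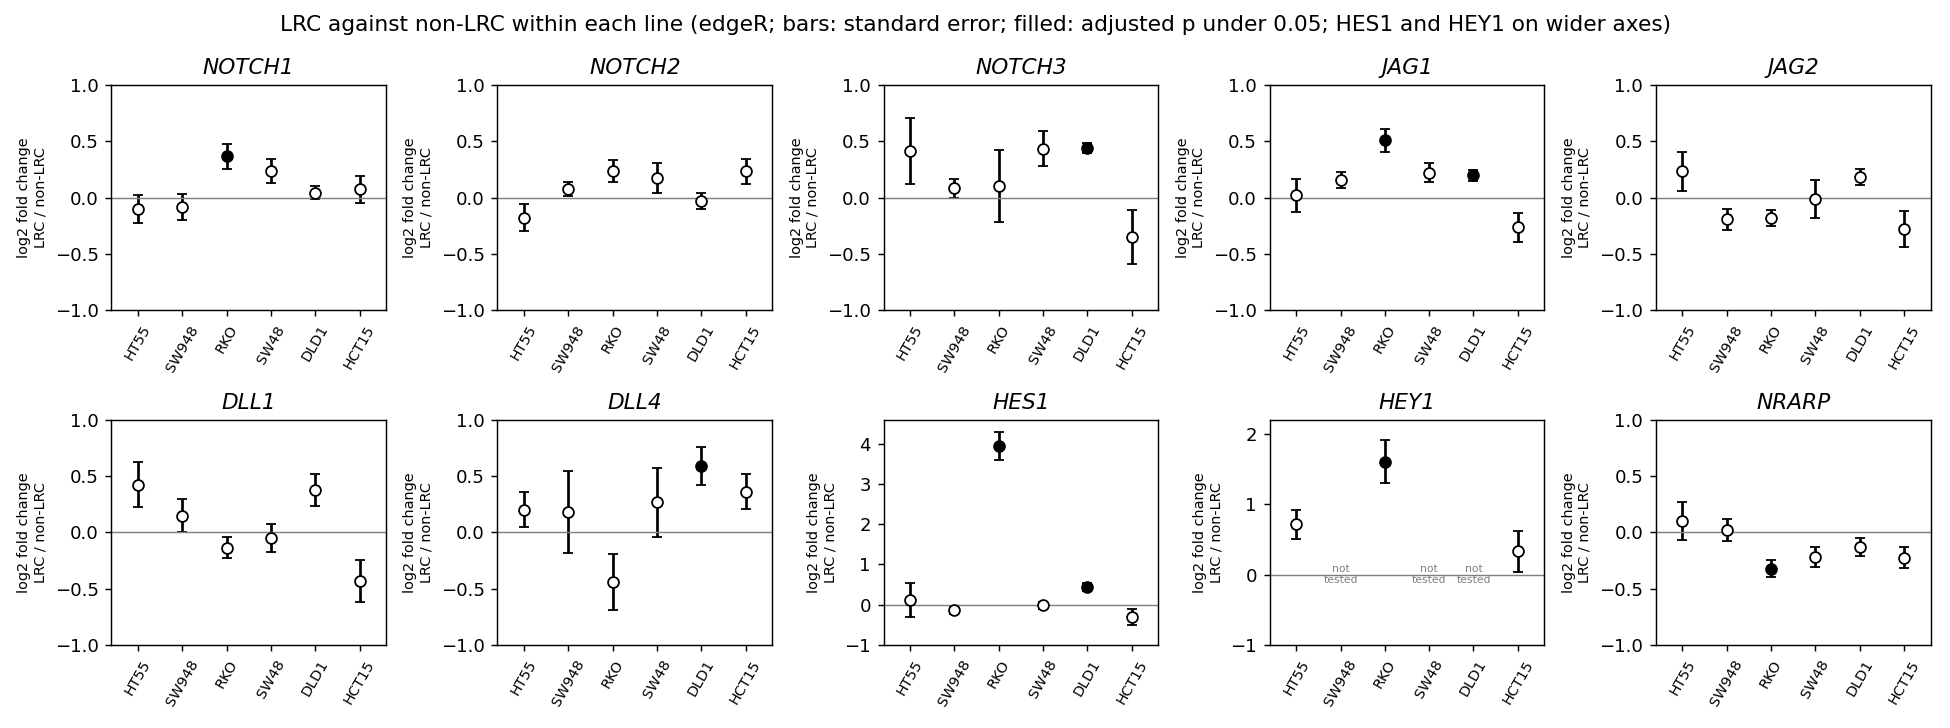
Log2 fold change of each member, LRC over non-LRC, within each line; bars are standard errors, filled points have an adjusted p under 0.05, and HES1 and HEY1 have wider axes. The RKO point of HES1 (3.95) lies far above the others, and the 4 filled points of DLD1 (NOTCH3, HES1, JAG1 and DLL4) are all above 0.

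In RKO, HES1 had the greatest fold change of the members in any line. Its non-LRC libraries held 0.827, 0.453, 0.157 and 0.250 CPM and its LRC libraries 8.02, 8.38, 4.02 and 5.69 CPM, from 24 and 399 reads. Every LRC library was above every non-LRC library, and the ratio of means was 15.5. The log2 fold change was 3.95 (SE 0.35, adjusted p = 9.16e-07, edgeR), and it stayed between 3.71 and 4.45 and called in 14 of 14 other settings. Even so, HES1 in RKO LRCs (6.53 ± 2.06 CPM, 3.17 RPKM) was below every other line, 26.6-fold under HT55 LRCs. The epithelial marker sum of RKO went from 238 to 302 CPM alongside, and its part in the result was not tested.

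HEY1 rose in RKO too, by 1.61 on the log2 scale (SE 0.30, adjusted p = 0.000585, edgeR). The ligand JAG1 was at 18.8, 15.9, 15.8 and 14.5 CPM in non-LRCs and at 23.9, 20.6, 25.6 and 22.5 CPM in LRCs, without overlap (log2 fold change 0.51, SE 0.10, adjusted p = 0.00102). NOTCH1 was at 149, 147, 111 and 111 CPM in non-LRCs and 176, 135, 194 and 163 CPM in LRCs, with 1 LRC library inside the non-LRC range (0.37, SE 0.11, adjusted p = 0.0146). Without non-LRC replicate 4 NOTCH1 was not called (0.30, adjusted p = 0.0572).

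NRARP moved the other way in RKO. Its non-LRC libraries were at 71.8, 75.2, 72.6 and 68.8 CPM and its LRC libraries at 59.6, 60.2, 60.2 and 50.4 CPM, so the groups did not overlap and NRARP fell by 0.33 on the log2 scale (SE 0.08, adjusted p = 0.00277, edgeR). Hence the targets did not move together: HES1 and HEY1 were higher in RKO LRCs and NRARP was lower. NOTCH2 (0.24, adjusted p = 0.0591) and JAG2 (-0.18, adjusted p = 0.0565, no overlap between groups) missed the threshold, and NOTCH3, DLL1 and DLL4 had adjusted p-values of 0.167 or more.

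**Figure D3:**
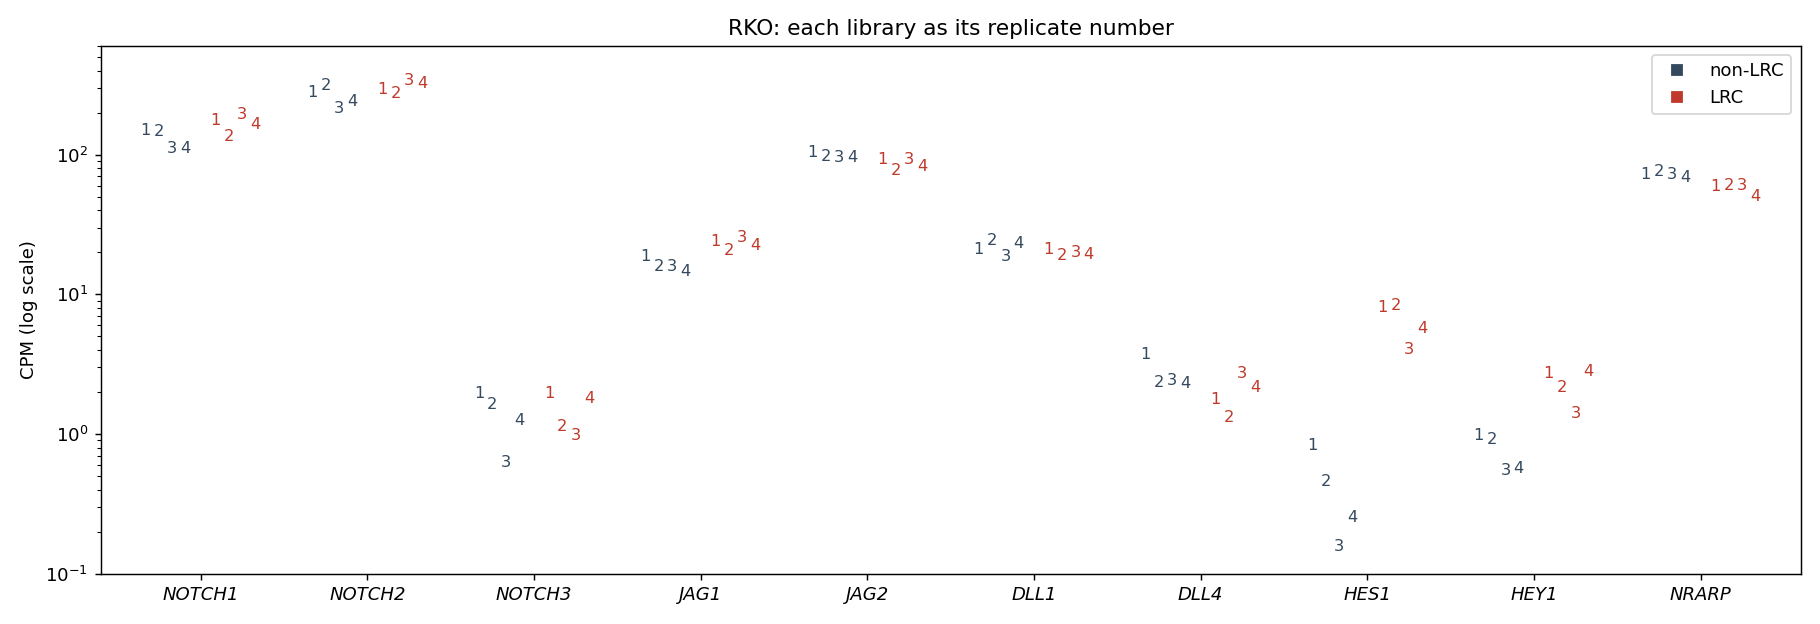
CPM of the members in RKO on a log scale, with each library drawn as its replicate number, non-LRCs dark and LRCs red. The groups of HES1 (0.157 to 0.827 against 4.02 to 8.38 CPM), HEY1 and JAG1 do not overlap, nor do those of JAG2 and NRARP, where LRCs are lower, 5 of 10 members beside 36.7% of genes.

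In DLD1, the members that were called all rose in LRCs. NOTCH3 was at 65.9, 67.4, 64.8 and 67.8 CPM in non-LRCs and at 89.7, 93.2, 84.0 and 88.5 CPM in LRCs, a log2 fold change of 0.44 (SE 0.05, adjusted p = 0.00059, edgeR). HES1 went from 63.9, 62.6, 50.3 and 50.4 CPM to 84.0, 78.7, 72.5 and 68.1 CPM (0.44, SE 0.09, adjusted p = 0.0114). JAG1 went from 151 ± 7.10 to 171 ± 0.863 CPM (0.20, SE 0.05, adjusted p = 0.0177), and DLL4, at low levels, from 4.97 to 7.40 CPM (0.59, SE 0.17, adjusted p = 0.0399). Of the 9 tested members 5 did not overlap between populations, these 4 and DLL1, all with LRCs above, beside 21.2% of all genes tested in DLD1. The call of JAG1 was lost without non-LRC replicate 3 (0.17, adjusted p = 0.0619), without non-LRC replicate 4 (0.18, adjusted p = 0.0524) and without LRC replicate 4 (0.19, adjusted p = 0.0524), in all in 5 of 15 other settings, and that of DLL4 was lost in 8 of 15 other settings (0.45 to 0.72). In 1 fit of all 48 sorted libraries, in which the lines share an estimate of spread, only HEY1 was called in DLD1 (2.12, adjusted p = 0.0275, edgeR). There NOTCH3 (0.42), HES1, JAG1 and DLL4 had adjusted p-values of 0.253, 0.404, 0.383 and 0.164. That fit called 646 of 16603 genes for DLD1, against 1978 of 13592 in the fit of DLD1 alone.

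Within the sorted groups of DLD1 and HCT15, replicates 1 and 2 correlated more with each other than with 3 and 4, and likewise 3 and 4. In HCT15 non-LRCs r was 0.993 for both, against 0.987 to 0.989 across them. In DLD1 LRCs it was 0.993 and 0.992, against 0.989 to 0.990. The 4 libraries of such a group may therefore not be 4 independent replicates. In DLD1, HCT15, SW48 and HT55 the replicate numbers paired the libraries, so the fit with the number as a block bears on them. In DLD1 that fit called 33.8% of genes and 6 of 9 members, adding JAG2 (0.18, SE 0.04, adjusted p = 0.00298, edgeR) and DLL1 (0.38, SE 0.14, adjusted p = 0.0331) to the 4 above. In SW48 it called 9.69% of genes and 1 member, NOTCH1 (0.23, adjusted p = 0.0348). In HT55 it called 0% of genes and no member. In HT55 without non-LRC replicate 2, NOTCH3 (0.83, adjusted p = 0.0265) and JAG2 (0.46, adjusted p = 0.0315) were called beside 3.92% of genes, and neither was called with it. That library held 106 CPM of NOTCH3, against 37.4, 52.2 and 46.7 CPM in non-LRC replicates 1, 3 and 4.

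In HCT15, the block fit called 21.3% of genes and 5 members, of which 4 were lower in LRCs. JAG1 was at 77.8, 75.5, 88.8 and 101 CPM in non-LRC replicates 1 to 4 and at 59.8, 64.9, 70.7 and 86.2 CPM in the same-numbered LRCs, lower in each pair (-0.27, adjusted p = 0.00451 with the block, 0.322 without). HES1 was at 47.0, 61.8, 89.4 and 73.7 CPM and then at 41.4, 48.8, 64.3 and 62.9 CPM, also lower in each pair (-0.29, adjusted p = 0.00576). JAG2 (-0.30, adjusted p = 0.0107) and NOTCH3 (-0.39, adjusted p = 0.0191) were lower as well, and NOTCH2 was higher (0.24, adjusted p = 0.0397). NOTCH3, JAG1, JAG2 and HES1 were thus higher in DLD1 LRCs and lower in HCT15 LRCs in the block fits. The difference between these lines alone was not tested.

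Whether the LRC effect differed between the 6 lines was tested with an interaction term. Of the members 4 were called, HES1 (adjusted p = 0.000136, edgeR), HEY1 (0.00857), JAG1 (0.0101) and DLL1 (0.0217), beside 14.3% of all genes. With the replicate block the call was made for 7 members, adding NOTCH3 (0.000771), JAG2 (0.000812) and NRARP (0.0127), beside 33.6% of genes. That block also covered RKO and SW948, where the replicate numbers did not pair the libraries. The call of JAG1 was lost without replicate number 1 or 3 (adjusted p up to 0.237), that of DLL1 without 1, 3 or 4 (up to 0.181) and that of HEY1 without 2, 3 or 4 (up to 0.116). HES1 was called in the 9 other settings that tested it. Without numbers 1, 2, 3 and 4 in turn, 522, 2850, 798 and 881 genes were called in all, against 2380 with every library.

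Other genes of the pathway were taken from 8 lists of 50 genes in all. Of these 46 were tested across the 6 lines and 11 were called, 9 higher and 2 lower in LRCs, a share close to the 22.9% of all genes (12.2% higher and 10.7% lower), so neither this count nor those of the single lists is a result about the pathway. Among the proteases that cut receptors and ligands, NCSTN, a subunit of gamma-secretase, rose by 0.15 (adjusted p = 0.000879, edgeR), and ADAM10, which cuts a ligand-bound receptor, rose by 0.10 (0.0386). Of 8 genes of the nuclear complex and its corepressors 2 rose, CIR1 (0.20, 0.000333), a corepressor that binds RBPJ, and KDM5A (0.18, 0.00192), a histone demethylase. These were changes of at most 0.20 on the log2 scale.

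Of 7 tested genes for receptor turnover and inhibition 2 rose, the ubiquitin ligase ITCH (0.12, adjusted p = 0.0284, edgeR) and FBXW7 (0.14, 0.0157), which marks the active receptor fragment for degradation. Of 5 glycosylation genes 1 fell, POGLUT1 (-0.17, 0.00788), which adds glucose to receptors. Of 4 ligand ubiquitination genes 1 rose, NEURL1B (0.44, 0.0159). Of 7 other HES and HEY genes, HEY2 rose (0.87, 0.0168) and HES6 fell (-0.25, 0.00108). The 3 tested receptors and ligands outside the members and the 3 tested secretory genes had no call, and ATOH1 and NEUROG3 did not pass the filter on low counts.

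In RKO alone, where 41.5% of all genes were called (20.4% higher), 3 of 4 ligand ubiquitination genes were called, all higher, 3 of 8 genes of the nuclear complex (2 higher, 1 lower) and 3 of 3 tested HES and HEY genes outside the members (1 higher, 2 lower). NEURL1B went from 3.24 to 19.3 CPM (log2 fold change 2.56, SE 0.13, adjusted p = 1.09e-09, edgeR), against -0.15 to 0.56 in the other lines. MIB1 and MIB2, the ligases that let ligands be taken up by their own cell, rose by 0.32 and 0.66. RBPJ, the DNA-binding partner of the receptors, was at 543 CPM in RKO non-LRCs and 425 CPM in LRCs (-0.35, SE 0.10, adjusted p = 0.0131), whereas in the other lines it lay between 52.4 and 106 CPM. RBPJ, MIB1 and MIB2 were chosen for mention after their values were seen.

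The genes whose pattern over the 12 means of line and population was most like a member's were taken by Pearson's r of log2 CPM, as a description, since the 12 points share libraries and scaling. They were TJP3 (r = 0.994) for NOTCH3, PIK3C2B (0.992) for JAG1, RETREG1 (0.987) for HES1 and NAA60 (0.985) for DLL4. For DLL1 it was ROBO1 (0.983), for NOTCH1 CHD4 (0.978), for JAG2 MTA1 (0.976), for NRARP ZNF282 (0.968) and for NOTCH2 TPGS2 (0.961). HEY1 had the least alike partners, KDM5A and LMO2 (both 0.925).

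The libraries labelled DLD1 control were meant to show effects of time in culture and of the dye. Members were called in each contrast, and which ones changed when the 3 libraries named above were left out. The mean of HEY1 was between 1.07 and 1.86 CPM in the 4 control groups, against 0.118 CPM in sorted DLD1 non-LRCs and 1.07 CPM in sorted HCT15 non-LRCs.

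**Figure D4:**
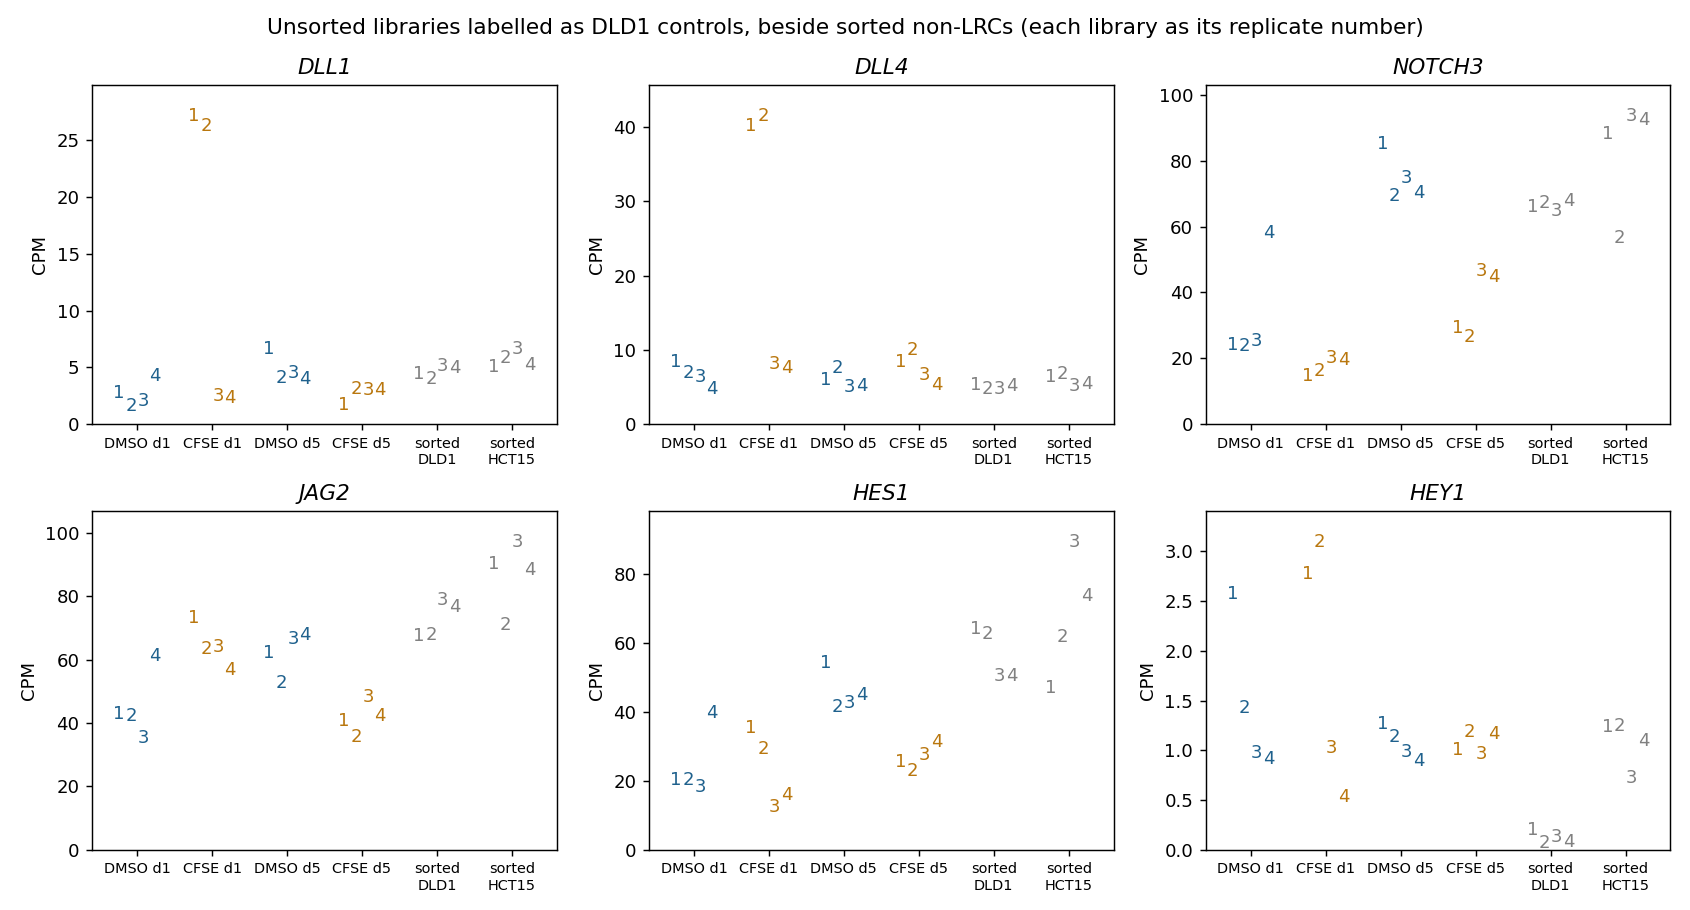
CPM of 6 members in the libraries labelled DLD1 control, each drawn as its replicate number, beside sorted DLD1 and HCT15 non-LRCs. Replicates 1 and 2 of CFSE d1 lie far above 3 and 4 for DLL1 and DLL4, and replicate 4 of DMSO d1 lies above 1 to 3 for NOTCH3 and HES1.

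DLL1 in CFSE d1 was at 27.2, 26.3, 2.50 and 2.27 CPM, against 2.73, 1.61, 2.01 and 4.20 CPM in DMSO d1. Replicates 3 and 4 thus lay within the DMSO range and replicates 1 and 2 far above it. DLL4 in CFSE d1 was at 40.1, 41.5, 8.15 and 7.50 CPM and in DMSO d1 at 8.33, 6.86, 6.37 and 4.74 CPM. The dye contrast at d1 called 6 of 10 members, beside 21.8% of genes, with DLL1 at 2.51 (SE 0.64, adjusted p = 0.0118, edgeR) and DLL4 at 1.93 (SE 0.46, adjusted p = 0.00892). Without CFSE d1 replicates 1 and 2 it called 0 members by edgeR (1.36% of genes), with DLL1 at -0.12 and DLL4 at 0.27, and without all 3 doubted libraries it called 1, NOTCH2 (0.63, adjusted p = 0.0287), beside 2.37% of genes.

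Time in culture raised NOTCH3 in the DMSO libraries, from 24.1, 23.7, 25.4 and 58.2 CPM at d1 to 85.2, 69.3, 74.8 and 70.3 CPM at d5 (log2 fold change 1.15, SE 0.25, adjusted p = 0.00821, edgeR). Replicate 4 of d1 lay closer to the d5 libraries than to its own group. HES1 rose from 20.2, 20.3, 18.1 and 39.6 CPM to 54.04, 41.3, 42.6 and 44.9 CPM (0.86, SE 0.28, adjusted p = 0.0371), with replicate 4 of d1 again the highest of its group. JAG1 (0.63, adjusted p = 0.00876) and NOTCH2 (0.50, adjusted p = 0.026) rose too, so 4 members were called beside 25.5% of genes. Without the 3 doubted libraries 6 members were called beside 48.5% of genes, adding JAG2 (0.51) and DLL1 (1.04), and NOTCH3 and HES1 stood at 1.49 and 1.103.

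In the CFSE libraries, time called 4 members beside 39.3% of genes. NOTCH3 rose from 14.5, 16.2, 20.02 and 19.4 CPM to 29.2, 26.5, 46.6 and 44.8 CPM (0.998, adjusted p = 0.00601, edgeR), and JAG2 fell from 73.1, 63.3, 64.2 and 56.9 CPM to 40.7, 35.6, 48.3 and 42.4 CPM (-0.70, adjusted p = 0.00241). Neither gene overlapped between the days, though the share of all genes without overlap was not counted in the controls. The falls of DLL1 (-2.51) and DLL4 (-1.78) were not present without CFSE d1 replicates 1 and 2 (0.067 and -0.18). In that setting 2 members were called, JAG2 (-0.65, adjusted p = 0.0222) and HES1 (0.79, adjusted p = 0.0453), beside 19.6% of genes, and NOTCH3 was at 0.79 (adjusted p = 0.104). Without all 3 doubted libraries 3 were called beside 29.6% of genes, with NOTCH3 at 0.80 (adjusted p = 0.00939).

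At d5, CFSE libraries had less NOTCH3 (-1.02, adjusted p = 0.0306, edgeR) and less JAG2 (-0.58, adjusted p = 0.0394) than DMSO libraries, 2 members beside 5.13% of genes. JAG2 stood at 62.2, 52.6, 66.5 and 67.9 CPM in DMSO and below all of these in CFSE, and how many other genes did so was not counted. Neither call was made when CFSE d5 replicate 1 or 2, or DMSO d5 replicate 1, 3 or 4, was left out. In that order, those fits called 0, 0, 1, 122 and 16 genes in all, against 745 of 14518 with every library. The call of JAG2 was also lost without CFSE d5 replicate 4 or DMSO d1 replicate 1 (adjusted p = 0.0581 and 0.0501, edgeR). Without the 3 doubted libraries 4 members were called beside 19.6% of genes, adding HES1 (-0.76, adjusted p = 0.00141) and DLL1 (-0.80, adjusted p = 0.0284). The dye effect differed between days for JAG2 alone of the members (-1.12, adjusted p = 0.0265), beside 0.999% of genes, and this call was lost in 11 of 24 other settings. Reads outside genes made up 9.0% to 14.8% in the d1 libraries and 5.2% to 8.4% in the d5 libraries, and the part of this difference in the time contrasts was not tested.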

How the data were processed

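RNA sequencing was analyzed in 64 libraries. For each, the authors deposited raw read counts per gene. The submitters' notes name TopHat, HTSeq, DESeq and hg19, while versions, annotation and strand setting are not given in the sources used here. The summary lines of each file were left out. Gene symbols and positions came from GENCODE 44 on GRCh37 for 47098 of 54127 genes (87.0%), and promoters from RefSeq.

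Counts were analyzed in R 4.3.3 with edgeR 4.0.16, keeping genes that reached 10 counts in 4 or more libraries entering a test, TMM scaling, the two-sided quasi-likelihood test and Benjamini-Hochberg adjustment over all genes tested, called at 0.05. Log2 CPM used a prior count of 2. A standard error is the size of the log2 fold change over the square root of F. Sorted libraries were tested across lines with line as covariate, within lines and for interaction, and the controls by group means. RPKM used summed exon length. DESeq2 1.42.0 was an alternative.

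Replicate numbers were taken to pair libraries where every same-numbered pair of LRC and non-LRC deviations correlated above 0.1. That held in HT55, SW48, DLD1 and HCT15 (lowest r = 0.220, 0.185, 0.254 and 0.333). No 2 replicates agreed within sampling noise. The study's methods state biological quadruplicates without saying how cultures were separated, so p-values measure the spread between these libraries.

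The text names all members, up to 3 called genes of each pathway list by smallest p, and the genes most like a member over line means. A gene that this rule names is not reported here. The members and lists were chosen with earlier results of these data known. The settings without doubted control libraries were chosen after seeing the data.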

Additional observations from a re-analysis of the deposited data

Results flagged for a closer look

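In 160 groups of 4 libraries, 12 held a library set apart from the other 3 by more than Dixon's 95% critical value, and chance gives about 1 in 20 groups. In SW48 these were non-LRC replicate 2 for NOTCH1 (80.9 CPM, nearest other 98.3) and JAG2 (144, nearest 225), non-LRC replicate 1 for NOTCH2 (131, nearest 187) and LRC replicate 4 for NOTCH2 (166, nearest 201). In HCT15 they were LRC replicate 2 for NOTCH2 (283 CPM, nearest 253) and non-LRC replicate 2 for NOTCH3 (56.5, nearest 88.2). In RKO they were non-LRC replicate 1 for DLL4 (3.68 CPM, nearest 2.43) and LRC replicate 4 for NRARP (50.4, nearest 59.6), and in SW948 non-LRC replicate 2 for NRARP (38.4, nearest 34.1).

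In the libraries labelled DLD1 control, DMSO d1 replicate 4 was set apart for NOTCH3 (58.2 CPM, nearest 25.4) and HES1 (39.6, nearest 20.3), the library that correlated best with the DMSO d5 group. CFSE d5 replicate 1 was set apart for DLL1 (1.72 CPM, nearest 2.98).

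The LRC effect differed between lines, by edgeR's interaction test, for HES1 (adjusted p = 0.000136), HEY1 (0.00857), JAG1 (0.0101) and DLL1 (0.0217). The dye effect differed between days for JAG2 (adjusted p = 0.0265).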

How the results depend on the processing

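Across the 6 lines 2 members were called, against 1 without a count filter, with DESeq2's size factors, with DESeq2, without SW48 or without DLD1, 4 without HT55 and 0 when at least 10 counts were asked in every sample, which removes HEY1. Leaving out a replicate number gave 1 to 2. Across these settings all genes called ran from 2243 of 16337 (without replicate number 3) to 4051 of 16232 (without HT55). The counts of members are therefore not read as results about the members. In SW948 the count went from 0 to 1 without a filter (973 of 27040 genes called) and in the fit of all 48 libraries (389 of 16603). In DLD1 it went from 4 to 1 in that fit (646 of 16603 genes) and to between 2 and 4 without single replicates (963 to 1784 genes). In HT55 it lay between 0 and 2 without single replicates (0 to 521 genes). The replicate block raised the count from 0 to 1 in SW48 (9.69% of genes), from 0 to 5 in HCT15 (21.3%) and from 4 to 7 for the interaction (33.6%). The interaction count fell to 2 with the filter on every sample (2095 of 10219 genes). It lay between 1 and 5 without single replicate numbers (522 to 2850 genes). Levels between lines went from 10 to 6 with that filter, which tests fewer members (10265 of 10332 genes called).

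In the controls, time in DMSO went from 4 to 2 without TMM (3112 of 14518 genes called) and to 2 to 5 without single replicates (963 to 6077 genes). Time in CFSE went from 4 to 2 without CFSE d1 replicates 1 and 2 (19.6% of genes). The dye at d1 went from 6 to 0 without them (1.36% of genes) and to 1 without DMSO d1 replicate 4 as well (2.37%). Without single replicates it lay between 1 and 7 (1358 to 3715 genes). The dye at d5 went from 2 to 4 without those 3 libraries (19.6% of genes) and to 0 to 3 without single replicates (0 to 1923 genes). The dye by day went from 1 to 2 without a filter (454 of 30600 genes) or with DESeq2 (623 of 14518). It went to 0 without CFSE d1 replicates 1 and 2 (13 of 14360) and to 0 to 3 without single replicates (16 to 880 genes). The cause of each change was not tested unless stated.

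The sign of DLL1 across lines turned without HT55 (-0.020), without DLD1 (-0.030) and without replicate number 3 (range without single numbers -0.013 to 0.072), and that of JAG2 without HCT15 (0.0063). DLL1 turned in CFSE over time (0.067 and 0.084) and for the dye at d1 (-0.12) without the doubted libraries. Of 71 other uncalled fold changes 23 changed sign and 12 were called in some setting. Without TMM, 29 of 160 mean CPM values moved by more than 1 SD. In SW948, RKO and the controls the replicate numbers did not pair the libraries (lowest r = -0.0137, -0.0913 and -0.275), and the block moved the share of genes called to 3.66% in SW948 and 37.2% in RKO. Depth limits HEY1 most.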
